A study of Mus musculus with 4 samples.

Results

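The respiratory chain and the ATP synthase of mouse mitochondria are built from proteins of both genomes, and the genes considered here are the nuclear ones. They were the protein-coding rows of the deposited count table outside the mitochondrial chromosome whose symbol began with Nduf, Uqcr, Atp5 or Cox followed by a digit from 4 to 8, or was Cyc1, Sdha, Sdhb, Sdhc or Sdhd. The rule used names and gene types, no measured value, and took 91 of 22554 genes. They comprised 46 genes of complex I, 4 of complex II, 9 of complex III, 15 of complex IV and 17 of complex V. Of the 46 complex I genes, 38 code for subunits and 8, the Ndufaf genes, code for assembly factors, which help to build the complex without staying in it.

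Complex I takes electrons from NADH and complex II takes them from succinate, and both pass them to ubiquinone. Complex III moves them on to cytochrome c, complex IV hands them to oxygen, and complex V uses the proton gradient set up by complexes I, III and IV to make ATP. Complexes I, III, IV and V join nuclear subunits, made in the cytosol and imported, with a few core subunits that the mitochondrial genome encodes, while complex II is wholly nuclear. In lymphocytes this machinery supports activation and growth, and group 2 innate lymphoid cells (ILC2s), the lung cells that answer IL-33 with type 2 cytokines, burn fatty acids through it.

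The data were RNA sequencing libraries of ILC2s sorted from lungs of wild-type BALB/c mice aged 6 weeks. All cells, controls included, were cultured with IL-2 and IL-7, which keep them alive, and with IL-33, which activates them, and received either the vehicle or compound 5D, a small molecule that blocks the Orai calcium channels. There were 2 libraries per group, and all comparisons are 5D against vehicle. The labels and the study's methods differ on the culture time and on the RNA input, no dose of 5D is given in the labels, and neither says whether the 2 libraries of a group came from separate mice, so p-values measure only the spread between these libraries, which may be technical. With 2 against 2, an exact permutation test of a single value cannot go below p = 0.333.

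The libraries held between 20096555 and 28697265 estimated counts, and the members took 1.98% to 2.02% of them. The defining ILC2 markers were present in all 4 libraries, with Gata3 between 1091 and 1108 normalized CPM (counts relative to the library total, with upper quartile scaling) and Il1rl1, the IL-33 receptor, between 627 and 732. Of the 12 ILC2 markers, 7 had estimates below 0, and none passed the adjusted threshold. At an unadjusted p under 0.05 in edgeR's test 4 were lower and 1, Il1rl1, was higher, beside 3.84% and 3.5% of all genes tested. The lower ones were Il2ra (log2 fold change -0.23, adjusted p 0.0878), Klrg1 (-0.15), Il5 (-0.084) and Thy1 (-0.39). The 12 summed to 11698 and 11608 normalized CPM with vehicle and 10808 and 11290 with 5D, without overlap between the groups. Summed over their lists, markers of T cells lay between 26.0 and 27.6 normalized CPM, of B cells between 13.6 and 19.4, of myeloid cells between 2.97 and 6.45, of mast cells and basophils between 2.25 and 5.55, and of erythroid cells between 3.87 and 4.75. The lists for NK cells and ILC1 stayed at or below 0.56, and for ILC3 between 21.01 and 31.9. Those for epithelial cells lay between 25.5 and 27.8, and for endothelial and stromal cells between 15.7 and 23.9. Single genes made up most of several of these sums. Cd3g lay between 21.6 and 24.6 normalized CPM, Cd79b between 13.4 and 19.1 and Il22 between 20.5 and 31.5. Epcam lay between 25.5 and 27.7 and Pecam1 between 15.7 and 23.7. Cd4, Mcpt4, Krt8, Scgb1a1 and Pdgfra were at 0 in every library. Nor did the groups overlap in the sums of the T cell list (26.1 and 26.0 with vehicle, 27.3 and 27.6 with 5D), the endothelial and stromal list (23.9 and 21.3, then 19.9 and 15.7) and the erythroid list (4.52 and 4.75, then 3.87 and 3.88). Among single genes, 18.8% of all tested had both 5D values under both vehicle values, and 18.7% had both over. The part of these cells in the results below was not tested. In bulk RNA, fewer cells of a type and less RNA per cell cannot be told apart.

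Many nuclear respiratory genes have sites for NRF1, for the ETS factor GABP and for YY1 in their promoters, and these motifs were therefore searched on both strands in RefSeq promoters (GRCm38.p6) that span 250 bases before to 50 bases after each gene's start. Entries were found for 74 of the 91 members. The letters searched were GCGCANGCG for NRF1, CCGGAAG for GABP and AAGATGGCG for YY1, where the NRF1 letters can match both strands at overlapping positions. The NRF1 letters were in 22 of 74 members (29.7%), against 14.0% of 11277 protein-coding genes of the table that had an entry. The GABP letters were in 19 members (25.7%, against 18.6%) and the YY1 letters in 8 (10.8%, against 3.18%), and 40 members held at least 1 of the 3. A match is a description of the letters, not a site shown to be bound, and no test was made. Below are 5 promoters, chosen after the matches were seen: Sdha and Atp5g3, whose transcripts are described in most detail, Sdhd and Cox6a1 as further subunit genes with matches, and Ndufaf4 as an assembly factor with one. Each is cut to a stretch outside every annotated exon, in the gene's direction, and the capitals mark the motif matches.
Sdha, chr13:74350281-74350308, minus strand, 1 of its 3 NRF1 matches: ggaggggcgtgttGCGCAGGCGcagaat
Sdhd, chr9:50603850-50603909, minus strand, 1 GABP match: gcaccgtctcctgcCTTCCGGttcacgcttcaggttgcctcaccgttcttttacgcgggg
Cox6a1, chr5:115348982-115349129, minus strand, 3 NRF1 matches, of which 2 overlap on opposite strands: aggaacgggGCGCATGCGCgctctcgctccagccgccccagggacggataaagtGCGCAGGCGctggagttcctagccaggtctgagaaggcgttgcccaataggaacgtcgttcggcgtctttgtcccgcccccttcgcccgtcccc
Atp5g3, chr2:73911327-73911576, minus strand, 0 matches: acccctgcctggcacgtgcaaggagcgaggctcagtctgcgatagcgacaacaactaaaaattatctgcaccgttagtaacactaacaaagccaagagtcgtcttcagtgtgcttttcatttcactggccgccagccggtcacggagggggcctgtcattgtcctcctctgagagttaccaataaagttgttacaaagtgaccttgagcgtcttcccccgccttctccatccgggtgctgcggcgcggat
Ndufaf4, chr4:24897833-24898082, plus strand, 2 NRF1 matches that overlap on opposite strands: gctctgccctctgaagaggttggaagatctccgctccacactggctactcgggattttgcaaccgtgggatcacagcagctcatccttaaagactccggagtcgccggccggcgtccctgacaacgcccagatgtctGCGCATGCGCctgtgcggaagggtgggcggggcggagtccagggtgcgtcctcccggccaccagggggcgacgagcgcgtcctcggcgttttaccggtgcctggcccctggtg
Other matches lay in stretches not printed. Sdha had 2 further NRF1 matches, Sdhd an NRF1 match, Cox6a1 a GABP match, and Atp5g3 an NRF1 match after the gene's start.

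Across the members, transcripts of the nuclear respiratory chain and ATP synthase genes differed little between 5D and vehicle. Summed over all 91 members, the level was 19801 and 20263 normalized CPM with vehicle, then 19923 and 20179 with 5D. The 5D libraries lay between the vehicle libraries, and the ratio of the group means was 1.001. Of the 90 members that passed the filter on low counts, the log2 fold change had a median of 0.0054, beside -0.0016 over all 17650 genes tested, and 44 estimates were below 0 and 46 above.

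No member passed an adjusted p under 0.05 in the quasi-likelihood test of edgeR after Benjamini-Hochberg correction, a threshold that 0.0963% of all genes passed. At an unadjusted p under 0.05, 0 members were lower, where 3.84% of all genes were, and 1 member, Sdha, was higher, where 3.5% of all genes were. After adjustment DESeq2's Wald test and limma-voom also called 0 members. Without adjustment both called Sdha higher, and limma-voom called 1 member, Atp5g3, lower. Both 5D values were under both vehicle values in 10 of the 90 members, beside 18.8% of all genes tested, and over both in 20, beside 18.7%. In 71 members the difference of the group means was smaller than the larger of the differences between 2 libraries of 1 group. The share of all genes for which this holds is not given here, so the count does not set the members apart.

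The intervals of these estimates were narrow for most members, though they cover only the spread between these libraries. In 78 members every library held at least 1000 counts, and the median standard error of the log2 fold change over the 90 was 0.058. The 95% interval of the fold change lay within 1.3-fold of no change, in either direction, for 83 members and within 1.5-fold for 87. The 7 members whose interval reached past 1.3-fold were Cox6a2, Cox6b2 and Cox7a1, which had few counts, and the assembly factors Ndufaf2, Ndufaf3, Ndufaf7 and Ndufaf8.

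**Figure D1:**
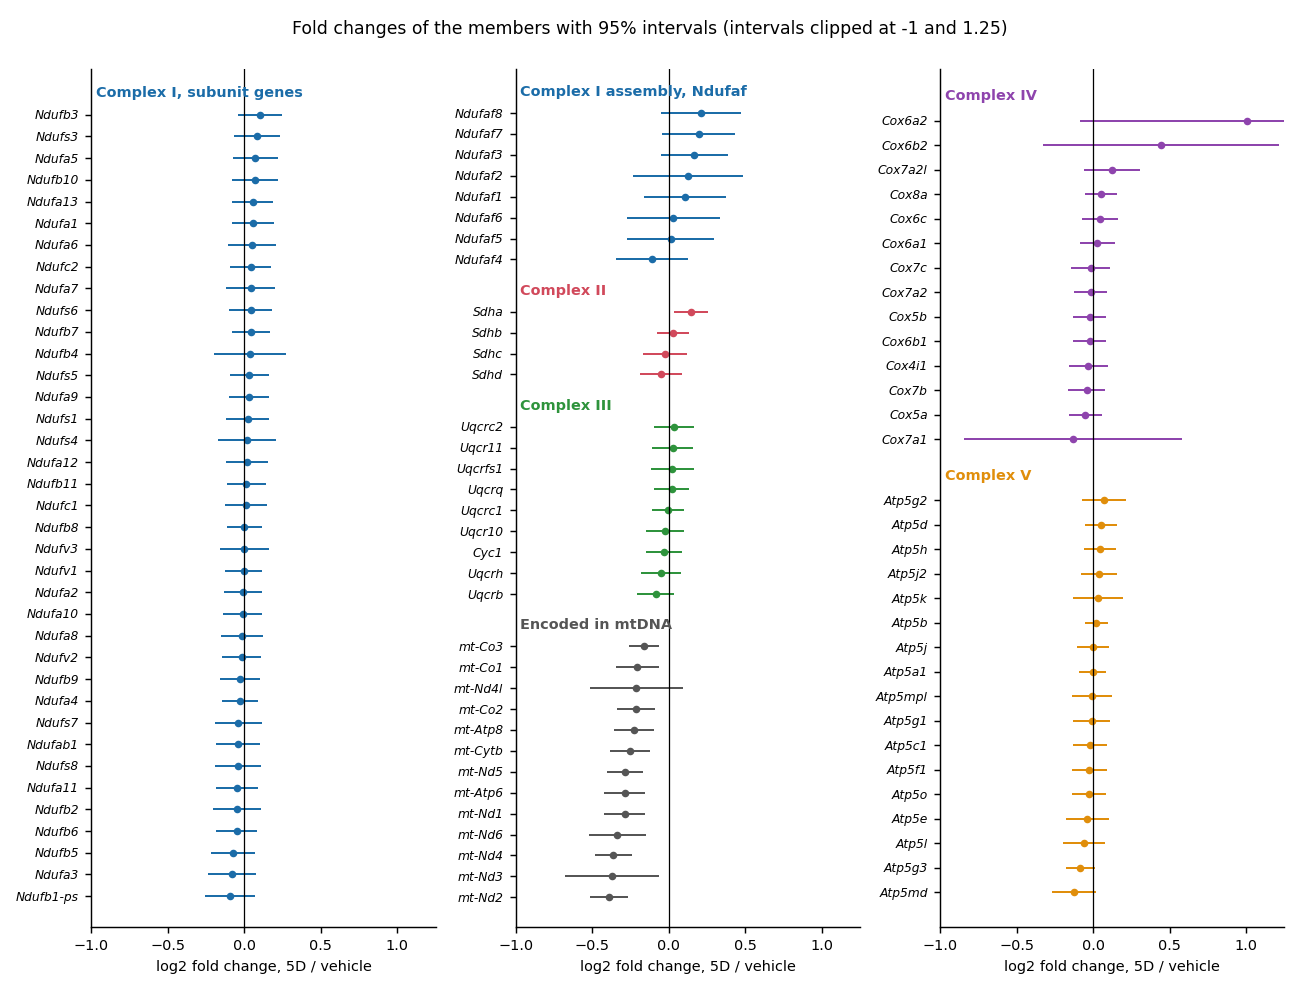
Log2 fold change of 5D against vehicle (x axis) with its 95% interval for 89 of the 90 members tested, by complex, and for the 13 subunits encoded in mitochondrial DNA; points are estimates and bars are intervals, clipped at the axis ends. Nearly all nuclear estimates lie close to 0, Cox6a2, Cox6b2 and Cox7a1 have wide intervals, and the 13 mitochondrially encoded subunits lie between -0.39 and -0.16.

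Complex I, the NADH dehydrogenase, was the largest group. Its 46 genes summed to 5519 and 5632 normalized CPM with vehicle and to 5605 and 5617 with 5D. Of the 38 subunit genes, 17 had estimates below 0 and 21 above, around a median log2 fold change of 0.011. None passed the unadjusted threshold. The core subunits Ndufs1, Ndufs3, Ndufs7, Ndufs8, Ndufv1 and Ndufv2, which belong to the arm that takes up NADH and carries the flavin and the iron-sulfur clusters, had estimates from -0.04 to 0.084.

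Among these the largest estimate was that of Ndufs3, part of the peripheral arm. It was at 105 and 110 normalized CPM with vehicle and 111 and 117 with 5D. Both 5D values were over both vehicle values, and the log2 fold change was 0.084 ± 0.065 (SE, n = 2 per group), with an adjusted p of 0.844 in edgeR's quasi-likelihood test.

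The groups overlapped in the other subunits named above. Ndufs1, the largest subunit, was at 157 and 148 normalized CPM with vehicle and 149 and 160 with 5D. Ndufv1, which binds NADH and the flavin, was at 194 and 193 with vehicle and 190 and 196 with 5D, and its partner Ndufv2 at 181 and 188, then 179 and 186. Ndufs7 and Ndufs8 carry the last clusters before ubiquinone. Ndufs7 was at 136 and 148, then 143 and 133, and Ndufs8 at 136 and 147, then 142 and 133, with log2 fold changes of -0.039 ± 0.067 and -0.044 ± 0.065.

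The accessory subunits surround this core and stabilise it. The 14 genes whose symbols are Ndufa with a number, or Ndufab1, had a median log2 fold change of 0.0036, and the 11 Ndufb genes one of 0.0002. The lowest estimates were those of Ndufb1-ps, Ndufa3 and Ndufb5. Ndufb1-ps, which the table lists as protein-coding and RefSeq names Ndufb1, was at 108 and 122 normalized CPM with vehicle and 106 and 109 with 5D. Its log2 fold change was -0.092 ± 0.072 with overlapping groups, and its exons overlap those of Cpsf2 on the other strand. Ndufa3 was at 124 and 130 with vehicle and 126 and 114 with 5D, a log2 fold change of -0.080 ± 0.069. In both genes the group means differed by less than 2 libraries of 1 group did. Without vehicle replicate 2 the estimate of Ndufb1-ps was -0.0064 and without vehicle replicate 1 it was -0.18, and that of Ndufa3 was -0.0096 without 5D replicate 2 and -0.16 without 5D replicate 1.

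Ndufa4 had the highest level per kilobase of transcript among the genes named for complex I, 346 normalized CPM per kilobase as the mean of the 4 libraries. Its product was first assigned to complex I and is now placed in complex IV. It was at 213 and 214 normalized CPM with vehicle and 207 and 211 with 5D, and its interval ran from -0.14 to 0.083 on the log2 scale. The lowest level per kilobase of a subunit gene was that of Ndufb4, 32.5, which shares a near-identical stretch with 1 other gene. The median over the 38 subunit genes was 145.

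The 8 assembly factors had lower levels than the subunits, from 10.9 normalized CPM per kilobase for Ndufaf4 to 33.3 for Ndufaf8, with a median of 17.9. All of them except Ndufaf8 were below every complex I subunit gene. Their summed level was 199 and 202 normalized CPM with vehicle and 218 and 209 with 5D. Of the 8, 7 had estimates above 0, beside 8763 of the 17650 genes tested, and the median log2 fold change was 0.12. Both 5D values were over both vehicle values in 3 of the 8, beside 18.7% of all genes tested. None of the 8 passed the unadjusted threshold. Their standard errors ran from 0.098 to 0.16, wider than those of most subunit genes.

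Ndufaf7, a methyltransferase needed for early assembly, was at 28.6 and 27.9 normalized CPM with vehicle and 31.3 and 33.5 with 5D, a log2 fold change of 0.20 ± 0.11 with an adjusted p of 0.751 in edgeR's test. It shares near-identical stretches with 5 other genes. Ndufaf8 was at 23.2 and 25.03 with vehicle and 29.3 and 26.4 with 5D, a log2 fold change of 0.21 ± 0.12 with an adjusted p of 0.754 in edgeR's test. Ndufaf3, the other factor in which both 5D libraries lay above both vehicle libraries, was at 34.0 and 35.0, then 39.5 and 37.9. Ndufaf4 was the factor with a negative estimate. It was at 40.6 and 41.8 with vehicle and 41.2 and 35.2 with 5D, and its estimate of -0.11 ± 0.11 was -0.0019 without 5D replicate 2 and -0.23 without 5D replicate 1.

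Complex II, succinate dehydrogenase, is also an enzyme of the citric acid cycle and has 4 genes. Sdha codes for the flavoprotein that oxidises succinate and lies on chromosome 13 from 74322254 to 74350280 on the minus strand. It had 6853 and 5901 counts with vehicle and 9024 and 9124 with 5D, which gave 295 and 295 normalized CPM with vehicle and 333 and 319 with 5D. Both 5D libraries lay above both vehicle libraries, which differed from each other by less than 1 CPM. The log2 fold change was 0.14 ± 0.048 (SE, n = 2 per group), with a 95% interval from 0.039 to 0.25. Its unadjusted p was 0.0113 and its adjusted p 0.55 in edgeR's quasi-likelihood test, so it did not pass after adjustment. Without 5D replicate 1 the estimate was 0.11 and the unadjusted threshold was not passed.

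The other 3 subunits of complex II overlapped between the groups. Sdhb, which carries the iron-sulfur clusters, was at 452 and 454 normalized CPM with vehicle and 450 and 473 with 5D. The membrane anchors Sdhc and Sdhd bind ubiquinone. Sdhc was at 117 and 123 with vehicle and 121 and 115 with 5D, and Sdhd at 246 and 273, then 257 and 243. Their log2 fold changes were 0.027 ± 0.044 for Sdhb, -0.025 ± 0.064 for Sdhc and -0.053 ± 0.060 for Sdhd. Per kilobase, Sdhb was the highest of the 4 (401) and Sdhc the lowest (37.5).

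Complex III, the cytochrome bc1 complex, summed to 2069 and 2120 normalized CPM with vehicle and 2072 and 2091 with 5D over its 9 genes. All 9 passed the filter, with log2 fold changes from -0.09 to 0.034. The groups overlapped in both redox subunits. Uqcrfs1, the Rieske iron-sulfur protein, was at 201 and 208 with vehicle and 196 and 220 with 5D, and Cyc1, cytochrome c1, at 255 and 266, then 257 and 253.

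Uqcrb, a small subunit next to cytochrome b, had the lowest estimate of the complex. It was at 194 and 199 normalized CPM with vehicle and 185 and 186 with 5D, and both 5D values were under both vehicle values. The log2 fold change was -0.085 ± 0.052 with an adjusted p of 0.792 in edgeR's test. With offsets for GC content and length the estimate was -0.030. It shares near-identical stretches with 3 other genes. Of the core proteins, Uqcrc1 was at 414 and 428 with vehicle and 422 and 417 with 5D, and Uqcrc2, the lowest of the complex per kilobase at 97.3, was at 189 and 176, then 184 and 189. Uqcrq was the highest per kilobase, at 687.

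Complex IV, cytochrome c oxidase, has nuclear subunits that exist as pairs of isoforms, one used broadly and one kept to heart and skeletal muscle, testis or, for Cox4i2, lung and low oxygen. Its 15 genes summed to 3566 and 3750 normalized CPM with vehicle and 3624 and 3673 with 5D. The broad isoforms dominated in every library. Cox4i1 was at 463 and 482 with vehicle and 436 and 487 with 5D, whereas Cox4i2 had 1 and 0 counts, then 2 and 0, and was the only member below the filter. Cox6a1, the highest of the complex at 848 normalized CPM per kilobase, was at 460 and 499, then 498 and 480. Cox6b1 was at 372 and 396 with vehicle and 380 and 375 with 5D, Cox7a2 at 402 and 424, then 408 and 408, and Cox8a at 411 and 430, then 433 and 436. Cox7b was at 218 and 217 with vehicle and 205 and 217 with 5D.

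The muscle isoform Cox6a2 lies on chromosome 7 from 128205435 to 128206387 and had 15 and 12 counts with vehicle and 36 and 34 with 5D. Its level rested on few counts but both 5D libraries lay above both vehicle libraries. In normalized CPM this was 0.65 and 0.60 against 1.33 and 1.19, and the log2 fold change of 1.01 ± 0.49 was the largest of the members, with a 95% interval from -0.077 to 2.09. Its unadjusted p was 0.0657 and its adjusted p 0.713 in edgeR's quasi-likelihood test. Within the Cox6a pair it made up 0.118% and 0.101% of the level per kilobase with vehicle and 0.223% and 0.208% with 5D. Its exons overlap those of Itgad on the other strand, and reads of either cannot be assigned without strand.

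Cox6b2 and Cox7a1 also had few counts. Cox6b2, the testis isoform, had 53 and 29 counts with vehicle and 71 and 71 with 5D. In normalized CPM this was 2.28 and 1.45 against 2.62 and 2.48, so both 5D libraries lay above both vehicle libraries. The log2 fold change was 0.44 ± 0.35, and the vehicle libraries differed most from each other. Without vehicle replicate 2 the estimate was 0.16 and without vehicle replicate 1 it was 0.81. Cox7a1, the muscle isoform, was at 2.54 and 3.15 normalized CPM with vehicle and 2.14 and 3.04 with 5D. Its estimate of -0.13 ± 0.32 was the lowest of all members and lay well inside its error. Cox7a2l, which joins complexes III and IV into a larger assembly, was at 57.3 and 60.9 with vehicle and 63.1 and 65.7 with 5D, a log2 fold change of 0.12 ± 0.081. It made up 7.98% ± 0.030 (SD, n = 2) of the Cox7a family's level per kilobase with vehicle and 8.73% ± 0.21 with 5D, where Cox7a2 took 91.0% and 90.3%.

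**Figure D2:**
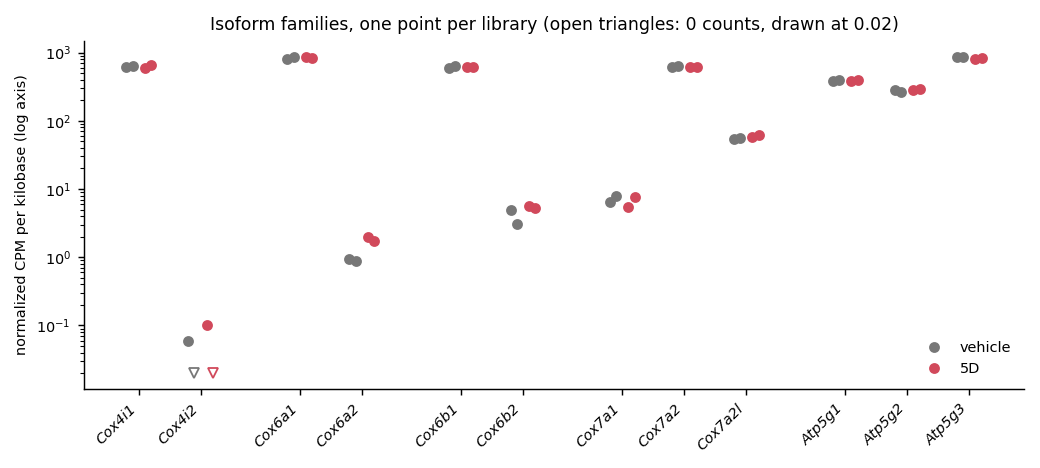
Level of each member of 5 isoform families in normalized CPM per kilobase of transcript (log axis), with 1 point per library, grey for vehicle and red for 5D; open triangles mark 0 counts. In each Cox family 1 isoform exceeds the others in all 4 libraries. The 5D points lie above those of vehicle in Cox6a2 (1.95 per kilobase or less), Cox6b2, Cox7a2l and Atp5g2, and below them in Atp5g3.

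Complex V, the ATP synthase, held the most abundant member. Atp5b, the catalytic beta subunit, was at 2207 and 2184 normalized CPM with vehicle and 2205 and 2244 with 5D, with 1153 per kilobase the highest level of all members. Atp5a1, the alpha subunit that forms the hexamer with it, was at 956 and 944, then 944 and 951. Their log2 fold changes of 0.019 ± 0.031 and -0.0043 ± 0.036 had the smallest standard errors of the members. The 17 genes summed to 7537 and 7615 with vehicle and 7462 and 7647 with 5D. The median log2 fold change of the 17 was -0.0075, the lowest -0.13 and the highest 0.071. The lowest level per kilobase of the complex was that of Atp5f1, a stalk subunit, at 269.

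The ring that turns in the membrane is made of 1 protein, subunit c, encoded by 3 genes that differ in their import signal. Atp5g3, on chromosome 2 from 73908447 to 73911326, was the main one, with 56.5% ± 0.067 (SD, n = 2) of their summed level per kilobase with vehicle and 54.7% ± 0.15 with 5D. It had 14175 and 12344 counts with vehicle and 15494 and 16777 with 5D, which gave 610 and 617 normalized CPM with vehicle and 571 and 587 with 5D. Both 5D values were under both vehicle values. The log2 fold change was -0.084 ± 0.041, with a 95% interval from -0.17 to 0.0049, an unadjusted p of 0.0619 and an adjusted p of 0.711 in edgeR's quasi-likelihood test. It was the member with the smallest p among those with lower estimates. Limma-voom called it lower without adjustment.

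The other 2 genes for subunit c had estimates on either side of 0. Atp5g1 was at 226 and 237 normalized CPM with vehicle and 226 and 234 with 5D, and Atp5g2 at 123 and 117, then 124 and 129. Atp5g2 had a log2 fold change of 0.071 ± 0.063 with both 5D libraries above both vehicle libraries, and Atp5g1 one of -0.011 ± 0.052. Both share near-identical stretches with other genes, and Atp5g3 does not. Summed over the 3 genes the level was 960 and 971 with vehicle and 921 and 949 with 5D, a ratio of 0.969.

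Atp5md, a small membrane subunit that helps ATP synthase form dimers, had the lowest estimate of complex V. It was at 191 and 190 normalized CPM with vehicle and 165 and 184 with 5D, so that 1 of the 5D libraries was further from vehicle than the other. The log2 fold change was -0.13 ± 0.063 with an adjusted p of 0.712 in edgeR's test, and its sequence is nearly identical in part to 3 other genes. Without 5D replicate 1 the estimate was -0.054, without 5D replicate 2 it was -0.21, and with offsets for GC content and length -0.068.

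**Figure D3:**
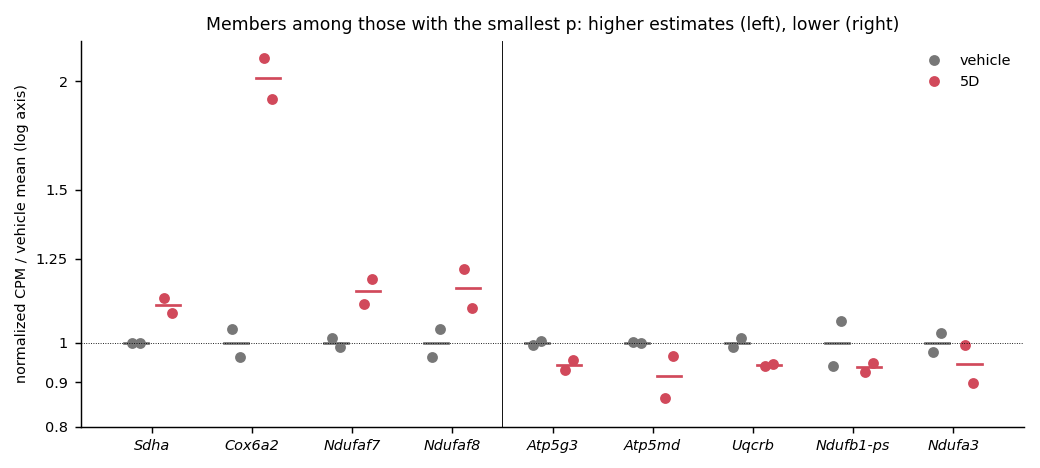
Level in each library divided by the vehicle mean of the gene (log axis) for 4 members with higher and 5 with lower estimates, all among those with the smallest unadjusted p; short lines are group means of 2 libraries. Except for Cox6a2, which had 36 counts or fewer per library, the groups differ by less than 1.3-fold, and the groups of Ndufb1-ps and Ndufa3 overlap.

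The nuclear members can be set beside the 13 subunits that mitochondrial DNA encodes for the same complexes. Members were placed by symbol, so the nuclear sums of complex I and of all complexes include the 8 assembly factors. Ndufa4 is counted in complex I. The 13 mitochondrially encoded subunits summed to 7036 and 6790 normalized CPM with vehicle and 5903 and 5739 with 5D. All 13 had both 5D libraries below both vehicle libraries, beside 18.8% of all genes tested, and their median log2 fold change was -0.28. Of them 2, mt-Nd2 and mt-Nd4, were lower at an adjusted p under 0.05 in edgeR's quasi-likelihood test, with adjusted p-values of 0.0253 and 0.0265. Of all genes tested, 0.0963% passed that threshold in either direction. With offsets for GC content and length 0 of the 13 did.

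Within each complex that draws on both genomes, the ratio of 5D to vehicle lay between 0.994 and 1.006 for the nuclear sum and between 0.803 and 0.875 for the mitochondrial sum. For complex I the nuclear sum was 5575 ± 80.2 (SD, n = 2) with vehicle and 5611 ± 8.31 with 5D, and the mitochondrial sum 2017 ± 72.5 and 1619 ± 105. For complex IV the nuclear sum was 3658 ± 130 and 3649 ± 35.0, and the mitochondrial sum 2887 ± 6.05 and 2527 ± 107. The nuclear sums of complexes I, III, IV and V overlapped between the groups, and the mitochondrial sums of the same complexes did not. In complex II, with no mitochondrial part, the 4 genes summed to 1110 and 1146 with vehicle and 1161 and 1151 with 5D.

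The ratio of the nuclear to the mitochondrial sum over all complexes was 2.81 and 2.98 with vehicle and 3.38 and 3.52 with 5D. It was higher in both 5D libraries, 1.19-fold on average, with p = 0.333 in the exact two-sided permutation test, the smallest value that 2 against 2 libraries can give. By complex the ratio was 1.26-fold higher with 5D for complex I, 1.18-fold for complex III, 1.14-fold for complex IV and 1.21-fold for complex V, each with the same p. Seen gene by gene, the 95% interval of 87 of the 90 nuclear members lay above -0.28, the median of the mitochondrially encoded subunits. The exceptions were Cox6b2, Cox7a1 and Ndufaf4.

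**Figure D4:**
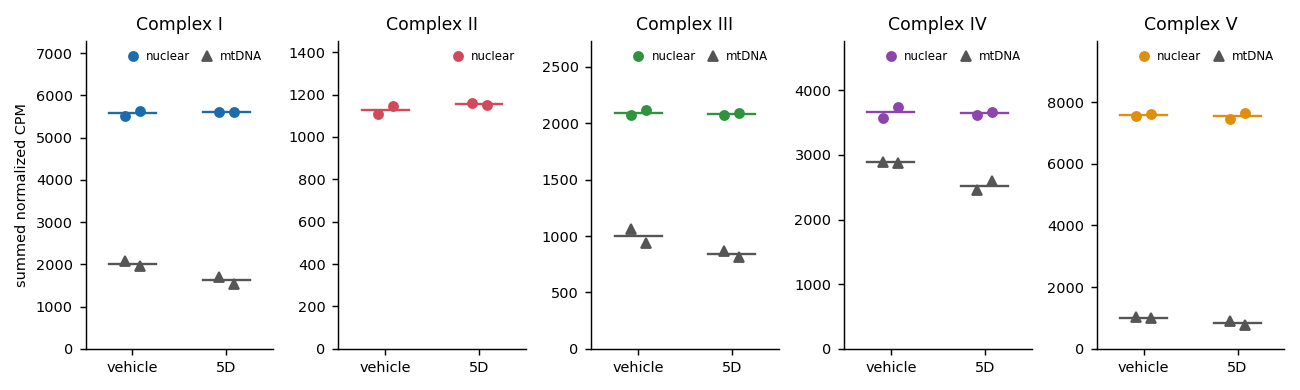
Summed normalized CPM per library for the nuclear genes (circles) and the mitochondrially encoded genes (triangles) of each complex; lines are group means of 2 libraries and each y axis starts at 0. The nuclear sums of complexes I, III, IV and V overlap between vehicle and 5D, the mitochondrial sums are lower with 5D, and complex II has nuclear genes only.

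The members differed from other genes in level and length. They were more abundant, with a median of 168 normalized CPM against 9.46 over all genes tested, and shorter, with a median transcript of 781 nt against 2327. They lay on 19 chromosomes. In 33 members exons overlap those of another gene, in 30 of them on the other strand, among them Ndufs1, Ndufs3, Ndufaf3 and Atp5md. In 26 members a near-identical stretch of at least 150 nt exists in another gene, and in 63 the deposited count was not whole in at least 1 library, at a tolerance of 0.05. The 26 had a median log2 fold change of 0.014 and the 64 others that were tested one of -0.0004.

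**Figure D5:**
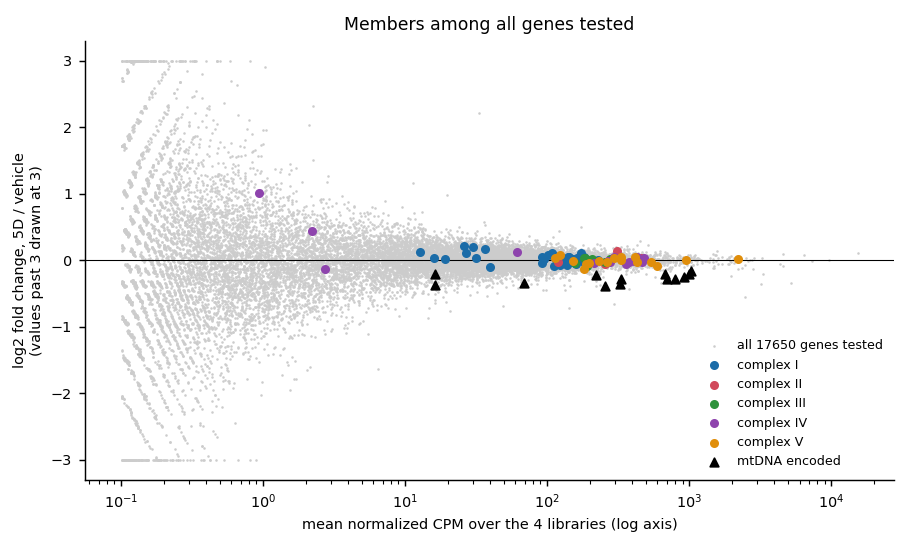
Log2 fold change of 5D against vehicle (y axis) over the mean normalized CPM (log x axis) for all 17650 genes tested (grey), the members by complex (coloured) and the 13 mitochondrially encoded subunits (black triangles). Most members sit at high levels and close to 0, and the mitochondrially encoded subunits lie below 0.

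Other genes of the pathway were counted from lists. Of 45 assembly factors outside the rule, such as Bcs1l for complex III, Surf1 and Cox10 for complex IV and Atpaf1 for complex V, 43 were in the table and tested. Their median log2 fold change was 0.024, and 0 were lower and 0 higher at either threshold. Their estimates ran from -0.19 to 0.34. Both 5D values were under both vehicle values in 6 of the 43 and over both in 10, beside 18.8% and 18.7% of all genes.

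Of the carriers and partner enzymes that feed or use the chain, 22 were tested, with a median log2 fold change of 0.032. At an unadjusted p under 0.05 in edgeR's test 1 of the 22 was lower and 3 were higher, beside 3.84% and 3.5% of all genes, and none passed after adjustment. The lower one was Ak4, a mitochondrial adenylate kinase, at 5.90 and 4.55 normalized CPM with vehicle and 2.14 and 3.29 with 5D. The higher ones were Gpd2, the glycerol phosphate dehydrogenase that passes electrons to ubiquinone, at 78.5 and 68.9, then 89.3 and 85.9, Ucp2, a carrier of the inner membrane, and Coq5, an enzyme of ubiquinone synthesis. Cycs, cytochrome c, was at 573 and 592 with vehicle and 567 and 579 with 5D.

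Of 10 nuclear regulators of respiratory genes, 9 were tested, with a median log2 fold change of -0.058. Estimates were below 0 in 7 of the 9, beside 50.4% of all genes tested. Both 5D values were under both vehicle values in 4 (Gabpa, Esrra, Yy1 and Tfb2m) and over both in 0, beside 18.8% and 18.7% of all genes. Yy1 was the 1 of the 9 below an unadjusted p of 0.05, a threshold at which 3.84% of all genes were lower. Its unadjusted p was 0.0401 in edgeR's test, at 34.6 and 35.2 normalized CPM with vehicle and 30.1 and 29.2 with 5D, and its adjusted p was 0.645. Nrf1 was at 88.7 and 87.4, then 92.3 and 82.1, and Gabpa, which encodes the DNA-binding subunit of GABP, at 60.6 and 62.8, then 58.5 and 57.0. The coactivator Ppargc1a had 3 counts in 1 vehicle library and 0 in the other 3 libraries.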

How the data were processed

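The authors made cDNA with a low-input kit, sequenced it on a NextSeq 500 system, aligned the reads with STAR 2.6.1 to mm10 with GENCODE M21 and quantified them in Partek. The deposited values were estimated counts of each gene, not yet normalized. Between 50.4% and 53.2% of the values of a library were whole, so the expected counts were rounded. The 4 libraries were scaled by the upper quartile over all genes, and genes were kept from a mean of 1 and a sum of 10 normalized counts, which left 17650 of 22554. They were fitted with edgeR 4.0.16 (quasi-likelihood test, two-sided, no covariates, Benjamini-Hochberg adjustment over all genes tested) in R 4.3.3. Gene Set Analysis, the authors' own test, was not run. Standard errors are the log2 fold change over the square root of F.

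Members, lists, motifs and named genes were chosen with earlier results of these data known, so no list was tested against other genes. The only p-values for sums are those of the exact permutation test of the nuclear to mitochondrial ratio. They cannot go below 0.333 and so cannot decide whether the groups differ. Named were the 5 higher and 5 lower members with the smallest p, the most and least abundant per complex, Sdha and Atp5g3 (which the study shows), complex II, isoform families, catalytic subunits and the Ndufaf genes with the smallest p. Lengths are of the shortest principal GENCODE M21 transcript. Of the members, 90 matched it by symbol and 1, Atp5md, by position. Near-identical stretches were searched with BLAST 2.17.0 at 95% identity. Alternatives were TMM, DESeq2 1.42.0 size factors and Wald test, limma-voom (limma 3.58.1), 2 filters, totals without mitochondrial genes, the replicate block, loess offsets (span 0.5) for GC content and length, and leaving out each library. The code was tested on simulated data. Ndufa4l2, Cox7b2, Cox8b and Cox8c were not analysed here, and no protein sequences were used. Intervals cover the spread between these libraries only. The value of 1 member picked by this rule is not given.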

Additional observations from a re-analysis of the deposited data

How the results depend on the processing

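No member passed an adjusted p under 0.05 in either direction under any alternative, and the smallest adjusted p of a member was 0.313, for Sdha in DESeq2's Wald test. The number lower at an unadjusted p was 0 as reported and 1 with limma-voom (Atp5g3). The deviations of the replicates were hardly correlated between the groups (-0.0054), which cannot settle whether the replicate numbers pair the samples. With the replicate block 1 member (Atp5md) was lower. Over all genes 41 passed the adjusted threshold with the block and 17 as reported, and of the mitochondrially encoded subunits 8 and 2. Leaving out each library in turn, with the lone library assumed to vary like the other group, gave 0 to 1 lower and 0 to 1 higher. It was 1 lower without vehicle replicate 1 (Ndufb1-ps) or without 5D replicate 2 (Atp5md), and 0 higher without 5D replicate 1. The median over the members stayed between -0.013 and 0.017. The median over all 46 genes of complex I, assembly factors included, was 0.018 in the main edgeR fit. It was 0.027 with TMM, which moved the median of all genes to 0.0075, and 0.021 with offsets for GC content and length. Without single libraries it lay between 0.0018 and 0.016. That of complex IV, -0.017, was 0.012 with those offsets and ran from -0.037 to 0.039 without single libraries. The medians of complexes II, III and V were 0.0009, -0.0053 and -0.0075 in the main edgeR fit. Each changed sign under at least 1 of TMM, those offsets or a left-out library, and the cause was not tested. With the offsets Atp5g1 turned to 0.0011 and Ndufa4 to 0.013, and with TMM Atp5a1 turned to 0.0049. Without single libraries Atp5g1 ran from -0.047 to 0.020, Atp5a1 from -0.016 to 0.0011, Ndufs7 from -0.10 to 0.021, Ndufs8 from -0.11 to 0.013, Sdhb from -0.011 to 0.058, Sdhc from -0.066 to 0.011, Sdhd from -0.13 to 0.023 and Cox7a1 from -0.41 to 0.096. The other members whose fold change is named singly kept their sign under every alternative, but not their size. Without single libraries Ndufb1-ps ran from -0.18 to -0.0064, Ndufa3 from -0.16 to -0.0096, Ndufaf4 from -0.23 to -0.0019, Atp5md from -0.21 to -0.054, Cox6b2 from 0.16 to 0.81, Ndufaf8 from 0.13 (without 5D replicate 1) to 0.28, Cox7a2l from 0.079 (without vehicle replicate 1) to 0.17, Ndufs3 from 0.045 (without vehicle replicate 1) to 0.12, Atp5g2 from 0.035 (without vehicle replicate 2) to 0.10 and Atp5b from 0.0042 (without 5D replicate 2) to 0.028. With the offsets Uqcrb was -0.030, Atp5md -0.068, Ndufa3 -0.051 and Atp5b 0.012. All 13 mitochondrially encoded subunits stayed below 0, with medians from -0.32 to -0.22, and between 0 and 9 of them passed the adjusted threshold. Depth limits Cox6a2, Cox6b2, Cox7a1 and Cox4i2, which had fewer than 100 counts in every library.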
